A study of Rattus norvegicus with 6 samples.

Results

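Ribosomal protein genes were taken as the rows of a rat liver count table whose gene name began with Rpl or Rps and a number, or was Rplp0, Rplp1 or Rplp2. The rule found 110 of the 30957 rows of the table, with 87 different names, 70 of them of the large (60S) and 40 of the small (40S) subunit. A further 10 rows whose names carry -ps (pseudogene) were kept apart, and 10 kinase rows (Rps6k) were left out. The names were checked against the descriptions in the table, and 1 row, Rps19bp1, met the rule by its letters although its product binds the ribosomal protein S19 and is not part of the ribosome. It was counted among the 110. No measured value entered the rule.

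The livers came from female Sprague Dawley rats that had first drunk an antibiotic cocktail to deplete their own gut bacteria and then received faecal microbiota by daily oral gavage. The donors of the t-DHEA group had been injected with dehydroepiandrosterone, an androgen precursor used to induce features of polycystic ovary syndrome in rodents, and the donors of the t-PBS group had received phosphate-buffered saline (PBS). The recipients themselves were not injected with hormone. The paper reports that dehydroepiandrosterone sulfate passed to them with the transplant. Its level was higher in faeces of the t-DHEA donors, and the paper considered it very low. Its part in the values below was not tested. The donor pellets of a group were pooled, and rats shared cages, so that livers of a group were not fully separate treatments. RNA from 3 livers per group was sequenced, with totals of 12348511 to 14316886 counts per liver. A gene without a count could therefore hold up to 3 counts, or between 0.21 and 0.243 CPM (the count scaled to the library total) depending on the liver, and these limits cover counting error only. Summed CPM of 7 hepatocyte markers ran from 175000 to 192000 over the 6 livers. All 4 mesothelial markers were called lower in t-DHEA, with a summed level between 21.7 and 26.4 CPM in t-PBS and between 1.55 and 10.7 CPM in t-DHEA livers. Of 4 red blood cell markers 3 were called higher. Of 4 bile duct and of 4 stellate and fibroblast markers 2 each were called lower. Krt7 was on both the mesothelial and the bile duct list, and its call is counted in each. Of 3 endothelial markers 1 was called higher, and of the Kupffer cell, lymphocyte and hepatocyte markers none was called. The part of these cells in the values below was not tested. In whole liver, fewer cells of a type and less RNA per cell cannot be told apart.

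Ribosomal proteins are made in near equal amounts, since each ribosome carries a single copy of nearly all of them, and their mRNAs are among the most abundant of a liver cell. Most of these mRNAs begin with a terminal oligopyrimidine (TOP) tract, a C followed by further C and T, through which their translation is set by mTOR signalling. Their processed copies, made by reverse transcription of the spliced mRNA, are scattered over mammalian genomes, lack introns and can be nearly identical to the parent mRNA. A read from such an mRNA can then fit several places of a genome.

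The start sites of the genes are shown first, because windows with a tract occur among genes that the table lists at 0 and among genes that it counts evenly. RefSeq promoters of the rat assembly GRCr8 were available for 63 of 79 genes of the ribosomal proteins, in 64 windows of 30 bases, with 15 bases before the annotated start and 15 from it on. A tract was a C followed by at least 4 bases that were each C or T, searched on the sense strand, and it was found in 52 of the 64 windows (81.2%). The same tract was found in 34.8% of all 33469 promoter windows and in 41.5% of the 65 windows of mitochondrial ribosomal protein genes. The longest tract of each window is written in capitals. In the first 3 windows below it lies wholly before the annotated start. In those of Rpl12, Rplp0, Rpl19, Rpl14 and Rps24 it spans that start. The first 3 sequences belong to genes whose rows were at 0 in every liver, and the fourth to Rpl12, which had few counts under its own name:
Rps6 (chr5:106420526-106420555, minus strand): gacgCCTCCTaggcggtcggctgtgtcaag
Rplp2 (chr1:205975906-205975935, plus strand): CCTTTCgccgccggacgccgccgaggtcgc
Rpl7a (chr3:30637121-30637150, plus strand): CTCTCCTCCagccgagcaagatggtgagtg
Rpl12 (chr3:36661925-36661954, plus strand): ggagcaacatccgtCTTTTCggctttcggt
The next 5 belong to genes with even counts, the first 4 of them with a tract and the last without one:
Rplp0 (chr12:46718376-46718405, minus strand): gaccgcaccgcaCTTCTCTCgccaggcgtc
Rpl19 (chr10:83519049-83519078, plus strand): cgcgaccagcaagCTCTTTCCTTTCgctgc
Rpl14 (chr8:129163605-129163634, plus strand): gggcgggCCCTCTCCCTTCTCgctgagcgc
Rps24 (chr16:96502-96531, plus strand): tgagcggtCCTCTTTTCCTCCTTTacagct
Rpl11 (chr5:153560788-153560817, minus strand): ggggacttgaagcttgtttggtgctgggga
A tract is a description of the letters in the window and says nothing of its use in these livers.

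The rows were sorted by how evenly they were counted. Zero meant no count in any liver, low a highest count below 10, erratic a highest CPM at least 4 times the lowest, even a highest CPM below 2 times the lowest, and intermediate the rest, with counts below 3 raised to 3. Of the 110 rows, 68 (61.8%) were even, 12 intermediate, 2 erratic, 12 low and 16 (14.5%) zero. Of all 30957 rows 44.5% were zero and 32.2% even. Of 79 rows of mitochondrial ribosomal proteins, which are encoded by nuclear genes of their own, 70 (88.6%) were even and 5 (6.33%) zero. By subunit, even rows were 43 of 70 rows (61.4%) for 60S names and 25 of 40 (62.5%) for 40S names.

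**Figure D1:**
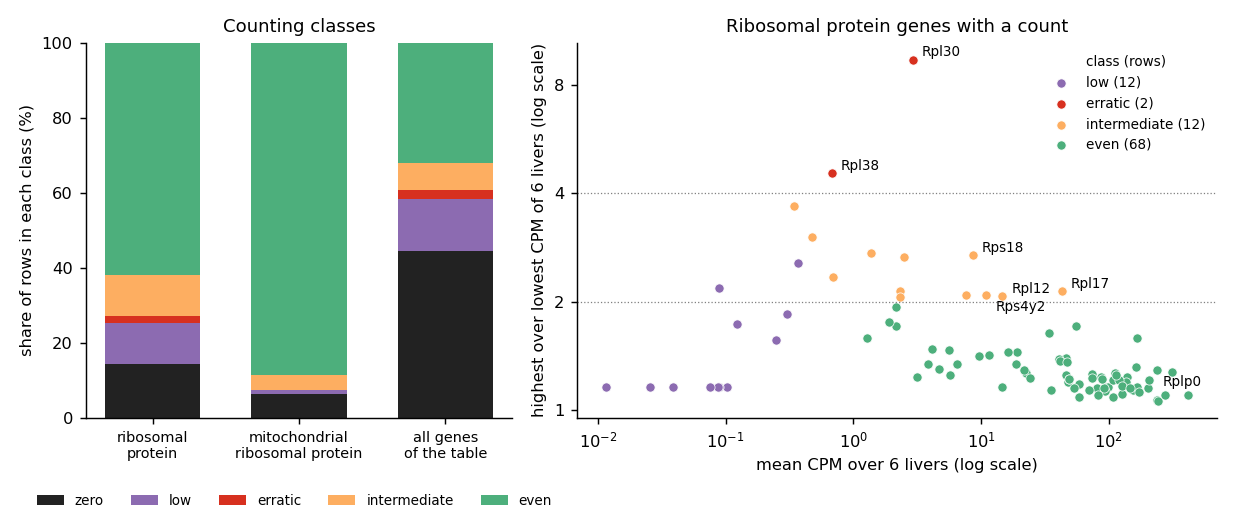
Share of rows in each counting class (left, %) for ribosomal protein, mitochondrial ribosomal protein and all genes, and mean CPM over the 6 livers against the highest over the lowest CPM of each ribosomal protein row with a count (right, both axes logarithmic, dotted lines at 2 and 4). Even rows fill the right part at high CPM, and Rpl30 stands alone at 9.40 times.

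The evenly counted rows formed the bulk of the level. Rplp0, the base of the ribosomal stalk that recruits translation factors, had the highest level per length among them, at a mean of 384 FPKM, the deposited unit that divides a count by exon length and library total. Its counts were 6253, 5699 and 5777 in t-PBS rats 1 to 3 and 4928, 5418 and 5335 in t-DHEA rats 1 to 3. On the CPM scale it lay at 437, 437 and 436 in t-PBS and at 399, 400 and 408 in t-DHEA livers, so that the groups did not overlap. The log2 fold change was -0.08 ± 0.09 (SE, n = 3 per group), and the 95% interval from -0.28 to 0.12 included 0. After Rplp0, the highest levels per length were those of Rpl41, the smallest ribosomal protein (368 FPKM), Rpl23 (295), Rpl19 (290), Rps4x (283), Rps29 on chromosome 3 (275), Rpl35 (270) and Rps27 (260). Of these, Rpl23 was the least even, at 1.59 times between its lowest liver, t-DHEA rat 3 with 115 CPM, and its highest, t-PBS rat 3 with 183 CPM.

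The steadiest rows were Rpl7, Rpl14, Rps24 and Rpl26. Rpl7 ran from 236 to 251 CPM over the 6 livers, 1.06 times between the extremes. Rpl14 counts were 3275, 3196 and 3237 in t-PBS and 2890, 3142 and 3098 in t-DHEA livers, or 229 to 245 CPM. Rps24 ran from 56.5 to 61.5 CPM and Rpl26 from 104 to 114 CPM. In each of these 4 rows the highest liver was at most 1.09 times the lowest.

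Several members with known further roles were also even. Rpl5 and Rpl11, which carry the 5S rRNA into the large subunit and can restrain the p53 regulator MDM2, ran from 186 to 225 CPM and from 122 to 152 CPM. Rps3, at the entry of the mRNA into the small subunit, ran from 115 to 134 CPM, and Rpl4 from 267 to 342 CPM. Rplp1, another protein of the stalk, had a row on chromosome 17 and one on chromosome 8, at 43.8 to 53.3 and 39.4 to 55.2 CPM, and both were even. Of the proteins that the rule does not reach, Rpsa of the small subunit held between 4726 and 5651 counts. Fau, which encodes S30 fused to a ubiquitin-like protein, was listed at 0 under its own name.

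The 16 rows without a count included several that stand for a protein every ribosome needs. Rps6 (ENSRNOG00000049025, chr5:105197857-105200148 of Rnor_6.0), the substrate of the S6 kinases, had no count in any of the 6 livers, and no other row described as S6 had one either. Rpl8 (ENSRNOG00000048456, chr7:118507224-118509256), next to the peptidyl transferase centre, and Rplp2 (ENSRNOG00000002116, chr1:213991620-213993609), of the stalk, each had a single row of that name, and it was at 0. Rpl7a had 2 rows on chromosome 3 with equal spans of 2424 bases, and both were at 0. Rpl35a had 2 rows of 401 bases on chromosome 12 at 0, beside others of that name that were counted. The remaining zero rows were 2 of the 7 rows named Rpl39, the Rpl38 row on chromosome 14, the Rps2 row on chromosome 5, the Rps23 row on chromosome 16, and Rpl31l3, Rpl34l1, Rps19l1 and Rps27l3. Since Rps6, Rpl8, Rplp2 and Rpl7a are needed in every cell, they are described here only as listed at 0, and no fold change was taken.

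The erratic class held 2 rows. Rpl30 (ENSRNOG00000005975, chr7:73213581-73216251), a 60S protein that in yeast binds its own transcript, had 19, 103 and 69 counts in t-PBS rats 1 to 3 and 16, 13 and 11 in t-DHEA rats 1 to 3. On the CPM scale this was 1.33, 7.90 and 5.21 against 1.3, 0.961 and 0.841. Rats 2 and 3 of t-PBS stood high, while rat 1 lay with the t-DHEA livers, just above the highest of them, so that the groups did not overlap by a narrow margin. The log2 fold change was -2.16 ± 0.58 (SE, n = 3 per group), with an unadjusted p = 0.0048 and a Benjamini-Hochberg adjusted p = 0.805 in edgeR's quasi-likelihood test and p = 0.1 in an exact two-sided permutation test, the lowest it allows. The other was the Rpl38 row on chromosome 8, a single exon of 213 bases, with 15, 3 and 11 counts in t-PBS and 11, 8 and 6 in t-DHEA livers. Its spread of 4.55 times rested on counts near the limit, and the groups overlapped.

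Among the intermediate rows, Rps18 had 68, 82 and 169 counts in t-PBS and 115, 90 and 157 in t-DHEA livers, and rat 3 was the highest of either group. Rpl17 had 921, 713 and 400 counts in t-PBS and 394, 612 and 393 in t-DHEA livers. The row overlaps RGD1562987 in the annotation, which held 2399 counts over the 6 livers. Rps14 had between 0 and 12 counts and Rps20 between 6 and 13. Among the low rows, Rps19, whose human gene is mutated in Diamond-Blackfan anaemia, had 3 to 6 counts per liver.

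Counts for many of these proteins stood on rows of other names. The table describes 228 further rows as one of the ribosomal proteins (named, for example, LOC100360117, "L8-like", or RGD1563861, "similar to L10"), of which 95 were at 0. Over the 6 livers the members held 484867 counts (60.1% of all counts described as ribosomal protein), the -ps rows 37996 (4.71%) and the other rows 283868 (35.2%). This comparison, and the sums per protein below, were chosen after the data were seen. Of the 79 ribosomal proteins, 37 had at least 90% of their counts on rows of their own name, 14 had such a row but under 10% of their counts on it, and 9 had no row of that name (Rpl10, Rpl21, Rpl22, Rpl36a, Rps9, Rps12, Rps13, Rps21 and Rps26).

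**Figure D2:**
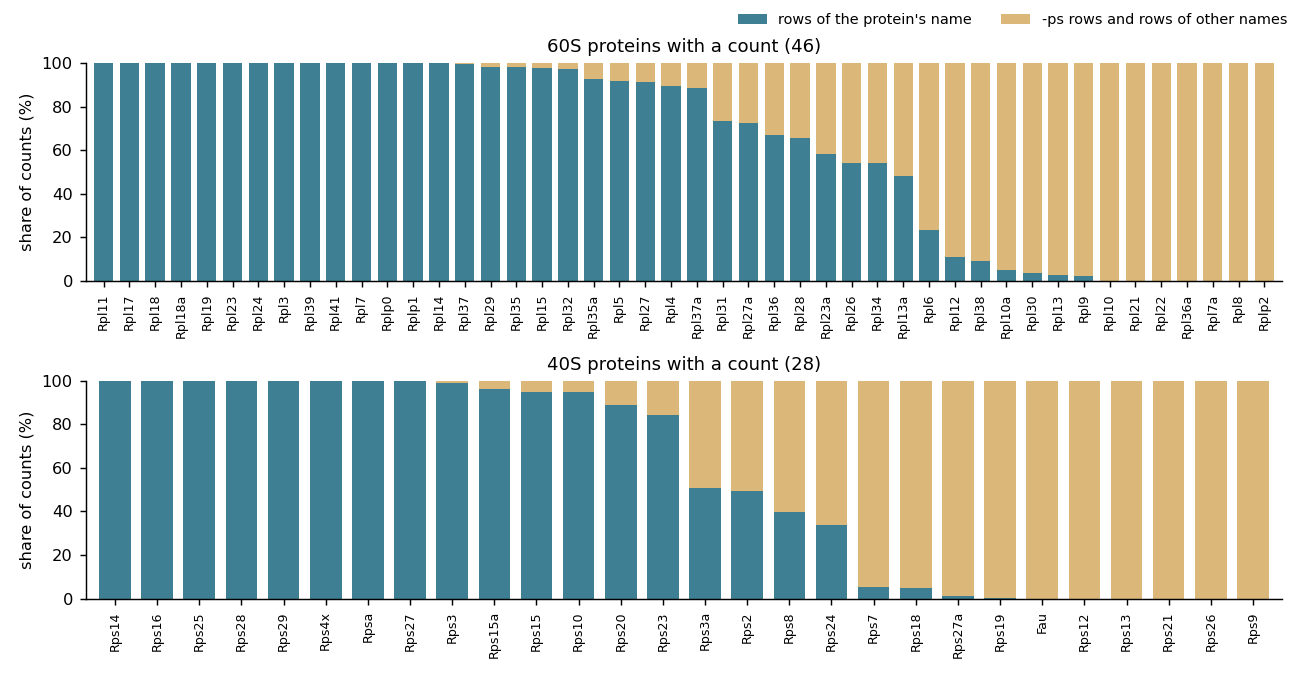
Share of each protein's counts over the 6 livers (%) held by rows of its own name and by -ps rows and rows of other names, for 60S (46) and 40S (28) proteins with a count. Proteins run from fully named, such as Rpl11, to those counted under other names alone, such as Rpl8 and Rps9. Rps6 is not drawn because it had no count, and 4 proteins with counts are not drawn.

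Rpl8 shows the pattern at its clearest. The row named Rpl8 had 0 counts, while LOC100360117, described as L8-like, had 2713, 2583 and 2767 counts in t-PBS and 2495, 2425 and 2616 in t-DHEA livers. That row was even, at 1.17 times between the extremes. Rplp2 likewise had 0 counts against 773, 809 and 838 in t-PBS and 690, 804 and 743 in t-DHEA livers on LOC498555. For Rps19 the row LOC100362339 held between 684 and 821 counts per liver beside the 3 to 6 of the named row. For Rps27a, which encodes S27a fused to ubiquitin, the named row had 17 to 31 counts and Rps27a-ps1 2149 to 2426. Rps2 was split almost evenly, with 49.4% of its counts on the rows named Rps2 and most of the rest on Rps2-ps6, which had 2021 to 2564 counts.

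The rows that took these counts mostly looked like single exons. The exon length implied by the deposited counts and FPKM was within 5% of the span in 114 of the 133 other rows with a count, and in 5 of the 7 -ps rows with a count. Rps2-ps6 was not among them, since its implied exon length of 1167 bases exceeded its span of 870. For the members it was so in 27 of 94, and for mitochondrial ribosomal proteins in 0 of 74. Among the 27 were Rps4x on chromosome 4, the Rpl32 row on chromosome 6 and the Rpl37 row on chromosome 10. The last 2 held most of the counts named Rpl32 and Rpl37. By counts, the single-exon rows held 193629 of the 283868 counts on other rows and 48772 of the 484867 counts on members. The 16 zero members have no FPKM above 0, so their exon length is unknown. How the reads were shared among near-identical places was not tested, since no reads were used.

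The same sums changed the picture of the unsteady rows. Rpl30 held 3.58% of the counts described as L30, and LOC100362027 had 1082, 982 and 1035 counts in t-PBS and 909, 1221 and 995 in t-DHEA livers. Summed over its rows, Rpl30 lay at 77.0, 83.3 and 83.4 CPM in t-PBS and at 74.9, 91.2 and 76.9 CPM in t-DHEA livers, and the groups overlapped. The log2 fold change of the sum was 0.03 with a 95% interval from -0.20 to 0.27 (n = 3 per group), against -2.16 for the row of its name. Rps18 fell from 2.69 to 1.2 times between the extremes when its rows were summed. After summing, 72 of the 79 proteins were even, 5 intermediate, 1 low and 1 zero, and none was erratic. The intermediate proteins were Rpl17, Rpl38, Rpl39, Rps14 and Rps20. Even with all rows of the protein, Rps14 had 28 and Rps20 62 counts over the 6 livers. Rps26 was low at 15 counts and Rps6 zero. Some even sums also held few counts, with 259 for Rpl7a, 398 for Rps12, 555 for Rpl35a and 870 for Fau, beside 15607 for Rpl8.

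**Figure D3:**
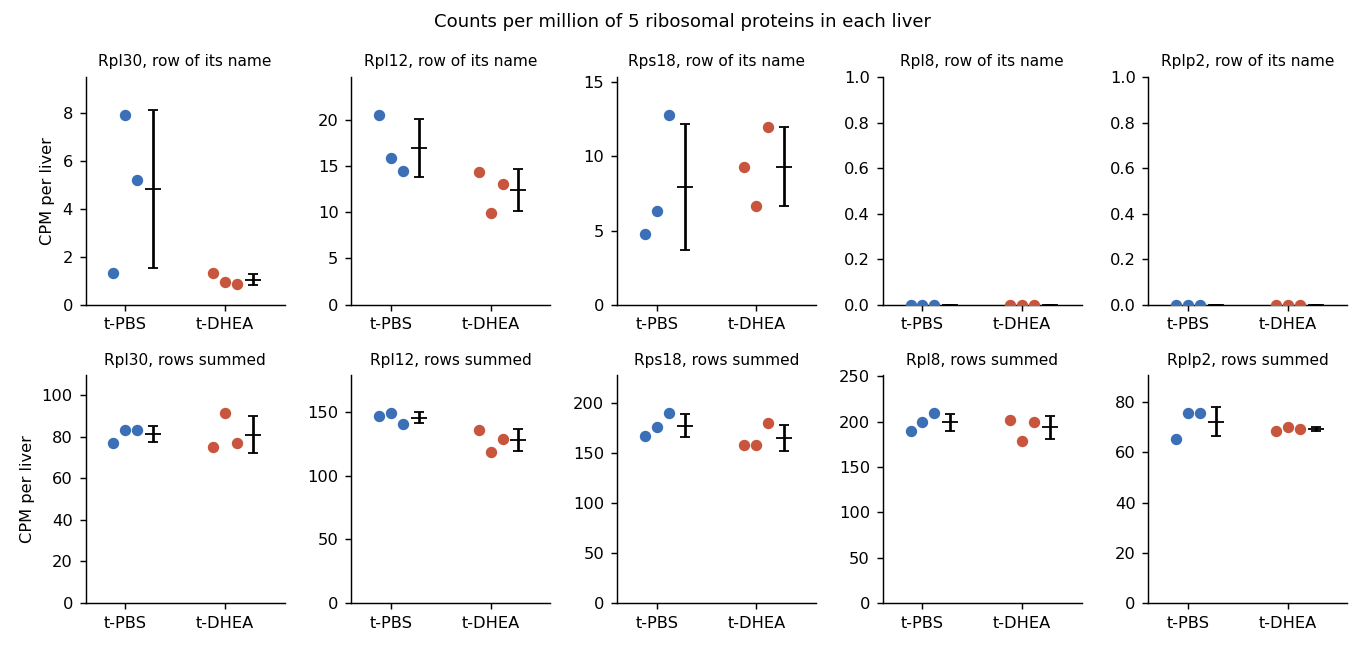
CPM in each liver for 5 ribosomal proteins, on the row of the protein's name (top) and on all rows described as that protein (bottom), with the mean and SD of the 3 livers per group beside the points and axes from 0. The 7.90 CPM of Rpl30 in t-PBS rat 2 is a small part of the 83.3 CPM in the sum, and Rpl8 and Rplp2 appear in the sum alone.

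Paralogues, Rps4y2 among them, are genes of their own and were not added to these sums. Rpl22, which also binds viral and cellular RNA, had no row of its name, and LOC100363800, described as L22-like, stood at a mean of 29.4 FPKM. Rpl22l1, its paralogue, stood at 20.6 FPKM, with 121 to 175 counts per liver and a log2 fold change of 0.19 ± 0.15 (SE, n = 3 per group) that was within its spread. Rpl3l, the striated muscle form of Rpl3, had at most 1 count per liver, and Rpl3 stood at 169 FPKM. Rpl10l, known from testis, stood at 11.8 FPKM on a single-exon row of 642 bases with 71 to 163 counts, beside 522 FPKM for RGD1563861, the row described as L10. Rpl39l had at most 5 counts. Rps27l, a p53 target, had 239 to 330 counts and was even at 1.29 times. Over the 7 rows named Rpl39, whose protein lines the exit tunnel, there were 81 counts in all.

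The groups were then compared, to see whether the donor microbiota changed these genes in the recipient liver. Of the 110 members, 80 passed the filter on low counts. With the thresholds of the study (an unadjusted p under 0.05 in edgeR's quasi-likelihood test and a fold over 1.2) 3 members were called, all lower in t-DHEA: Rpl30, Rps4y2 and Rpl12. This was 3.75% of the 80, against 4.95% of the 12210 rows tested, and for lower calls alone against 2.98%. After Benjamini-Hochberg adjustment over all rows the quasi-likelihood test called 0 members and 0 rows in all (background 0%), while 4 members (5%) and 5.19% of all rows had an unadjusted p under 0.05. DESeq2 called 20 and edgeR's likelihood-ratio test 28 of all rows at that adjusted threshold, and 0 members in either. The groups did not overlap in 10 of the 80 members (12.5%), against 10.1% of all rows tested. Of these, 2 (2.5%) were higher and 8 (10%) lower in t-DHEA, against 4.67% higher and 5.42% lower of all rows. With 3 livers per group an exact permutation test cannot go below p = 0.1.

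Rps4y2 (ENSRNOG00000031041, chr4:182745448-182746381) had 208, 135 and 184 counts in t-PBS and 86, 134 and 136 in t-DHEA livers. The lowest was rat 1 of t-DHEA and the highest rat 1 of t-PBS, and the groups overlapped on the CPM scale at 10.4. The log2 fold change was -0.47 ± 0.20 (SE, n = 3 per group), with an unadjusted p = 0.0402 and adjusted p = 0.957 in edgeR's quasi-likelihood test and p = 0.3 in an exact two-sided permutation test. The row bears the name of a Y-linked form of S4 but lies on chromosome 4 as a single exon of 934 bases that overlaps Tmtc1, which held 78 counts over the 6 livers. The call was lost when rat 1 or rat 3 of t-PBS (log2 fold changes of -0.37 and -0.41) or rat 1 of t-DHEA (-0.32) was left out.

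Rpl12 (ENSRNOG00000016220, chr3:12009578-12011666), which with the stalk forms the landing place of elongation factors, had 293, 207 and 192 counts in t-PBS and 177, 134 and 170 in t-DHEA livers. In CPM it lay at 20.5, 15.9 and 14.5 against 14.3, 9.90 and 13.0, and the groups overlapped after TMM scaling. The log2 fold change was -0.42 ± 0.18 (SE, n = 3 per group), with an unadjusted p = 0.0487 and adjusted p = 0.957 in edgeR's quasi-likelihood test and p = 0.2 in an exact two-sided permutation test. This row held 10.8% of the counts described as L12. Summed with the rest, most of it on LOC102555453, L12 lay at 147, 149 and 141 CPM in t-PBS and at 136, 119 and 129 CPM in t-DHEA livers. All 3 t-DHEA livers lay below the t-PBS livers, but the log2 fold change was -0.15 with a 95% interval from -0.36 to 0.06 and was not called. The call on the named row was also lost when rat 1 of t-PBS (log2 fold change -0.24), rat 2 of t-DHEA (-0.27) or rat 3 of t-DHEA (-0.44) was left out.

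The Rps10 row on chromosome 6 came close to a call. Its counts were 614, 649 and 531 in t-PBS and 458, 502 and 470 in t-DHEA livers, and the groups did not overlap. The log2 fold change was -0.23 ± 0.10 (SE, n = 3 per group), below the fold threshold, with an unadjusted p = 0.0490 in edgeR's quasi-likelihood test and p = 0.1 in an exact two-sided permutation test. The Rps10 row on chromosome 20, with introns, went the other way, at 387, 382 and 506 against 401, 450 and 580 counts and a log2 fold change of 0.26 ± 0.17. Summed over its rows, S10 had a log2 fold change of -0.01.

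**Figure D4:**
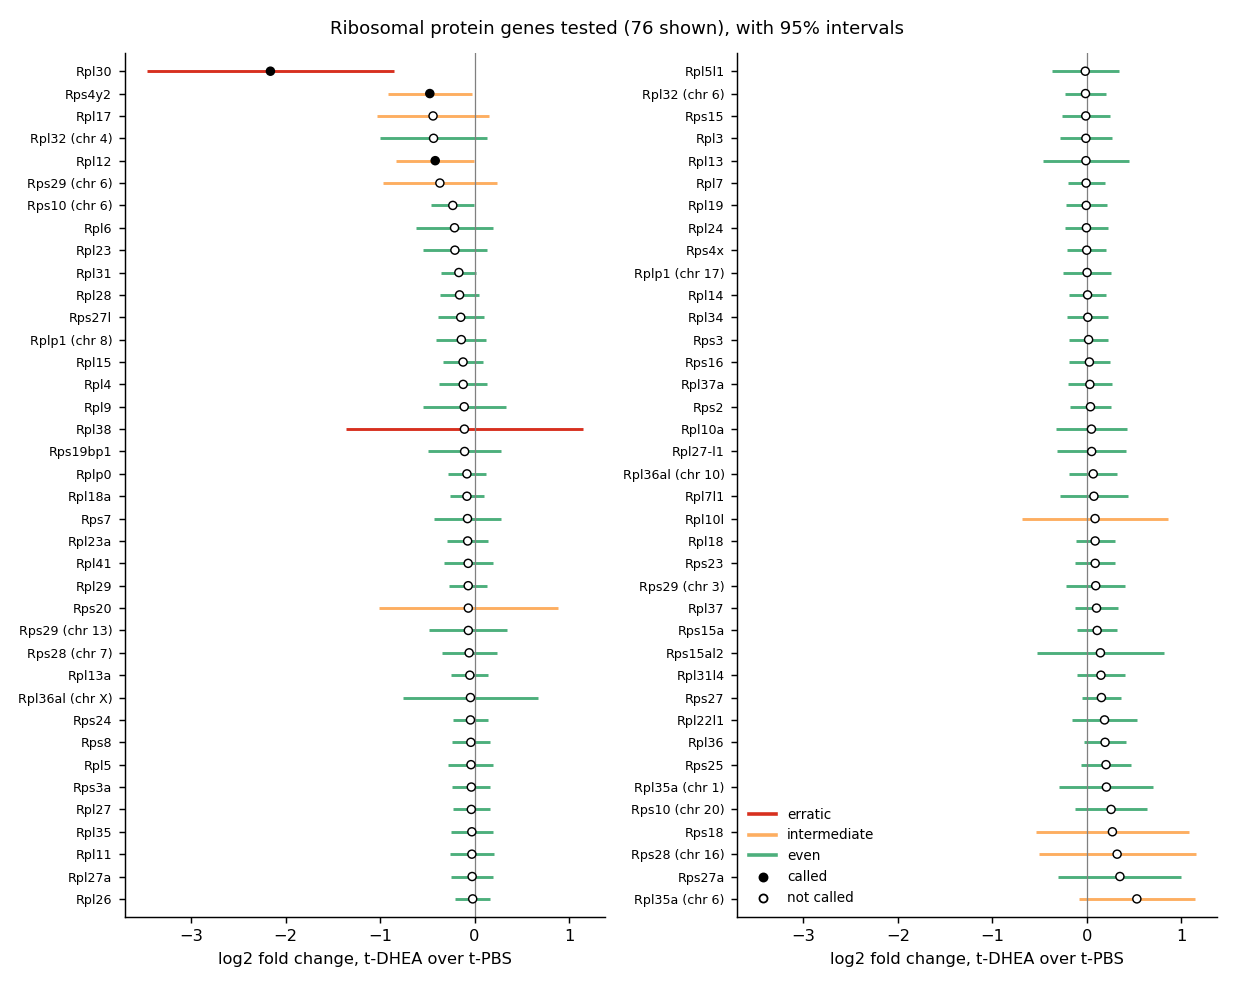
Log2 fold change of t-DHEA over t-PBS livers for 76 of the 80 ribosomal protein rows tested, with 95% intervals coloured by counting class, filled points for the 3 called rows. Most points lie near 0 with short intervals, and the widest interval belongs to Rpl30.

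The intervals were narrow for most members. The median log2 fold change of the 80 members was -0.02, with 30 above and 50 below 0, and that of all rows tested was 0.00. Their median SE was 0.111 against 0.154 for all rows tested. The 95% interval lay within 0.5 of 0 on the log2 scale in 58 of 80 members (72.5%), against 52.3% of all rows tested. Among the 59 members with a mean of at least 10 CPM it did so in 88.1%, against 78.7% of all rows at that level. Rpl7, for example, had a log2 fold change of -0.01 with an interval from -0.20 to 0.19, and Rpl14 of 0.01 with an interval from -0.19 to 0.20. Among the lowest fold changes not called were those of Rpl17 (-0.44) and the Rpl32 row on chromosome 4 (-0.43), and the highest was the Rpl35a row on chromosome 6 (0.53), all with intervals that include 0. That Rpl32 row held 20 to 36 counts per liver, and its groups did not overlap. Summed over its rows, Rpl32 had a log2 fold change of -0.03.

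Summed per protein, 76 proteins passed the filter and 0 were called, against 4.94% of the rows tested with them (edgeR quasi-likelihood test). No protein had an unadjusted p below 0.05, and the lowest was 0.0815 for Rps21. With a liver left out, 1 protein was called in 5 of the 6 fits, or 1.32%, against 4.13% to 5.99% of all rows. Rpl35a (0.47) was called without rat 1 of t-PBS. Rps21 (0.33 and 0.29) was called without rat 2 of t-PBS or rat 1 of t-DHEA. Rpl17 (-0.69 and -0.64) was called without rat 3 of t-PBS or rat 2 of t-DHEA. The fold changes ran from -0.44 for Rpl17 to 0.32 for Rpl35a on the log2 scale with a median of -0.01, and 29 proteins lay above and 47 below 0. The interval lay within 0.5 of 0 in 67 of the 76.

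The members were also summed per liver. They together took between 0.586% and 0.638% of the counts of a liver. The sum was 6046, 6384 and 6316 CPM in t-PBS and 5953, 5858 and 6018 CPM in t-DHEA livers, and the groups did not overlap, with means of 6249 ± 178 and 5943 ± 80.8 (SD, n = 3 each). The difference of the t-DHEA from the t-PBS mean was -4.89% on this scale. After TMM scaling, which is less affected by a few very abundant genes, it was -2.33%, and the livers overlapped, at 6062, 6129 and 6306 against 6065, 5924 and 6077 CPM. For 60S names the difference was -6.25% by total count and -3.72% by TMM, and the groups stayed apart under TMM, at 4246, 4289 and 4375 against 4238, 4028 and 4165 CPM. For 40S names it was -1.76% and 0.862%, a change of sign with the scaling. No test was run on these sums.

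**Figure D5:**
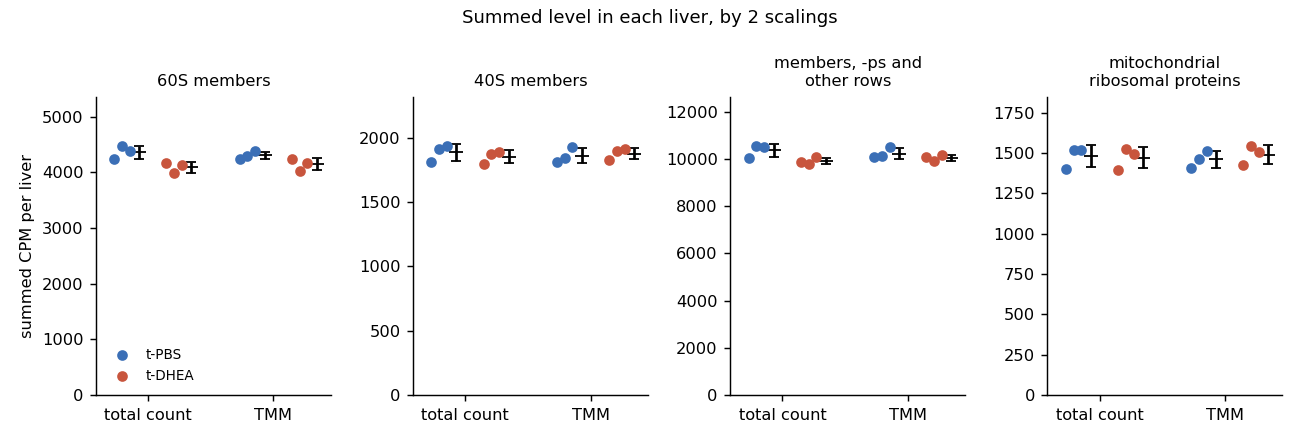
Summed CPM in each liver for 60S members, 40S members, all rows described as ribosomal proteins, and mitochondrial ribosomal proteins, scaled by the total count or by TMM, with the mean and SD of 3 livers per group and axes from 0. The groups lie within a few percent of each other in every panel.

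Lists of genes that work beside the ribosome held no call, against 4.95% of all rows tested. At that share the shorter lists would hold few calls or none. Of 79 mitochondrial ribosomal protein rows 73 were tested and 0 called (1 at an unadjusted p below 0.05, edgeR quasi-likelihood test; DESeq2 also called 0), with a median log2 fold change of 0.04. A list of translation initiation and elongation factors and of other genes, such as Pabpc1, Tpt1, Naca and Npm1, had 17 rows tested and 0 called. Of these, 8 lay above and 9 below 0, with a median of -0.01. Eif3h, a subunit of an initiation complex, had a row with 253 to 320 counts per liver and a log2 fold change of -0.03, and another row of that name was listed at 0. Of the ribosome assembly factors 32 were tested and 0 called, 11 above and 21 below 0, with a median of -0.04, and Ebna1bp2 was listed at 0. Without rat 1 or rat 3 of t-PBS or rat 3 of t-DHEA, 1 was called (3.12%, against 4.49% to 5.50% of all rows). Without rat 1 of t-DHEA, 2 were called (6.25% against 6.01%). Of the kinases of S6 and their relatives (Rps6k), 8 were tested and 0 called, 6 above and 2 below 0. None of these 3 lists held a gene at an unadjusted p below 0.05, in this test or in DESeq2.

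Small nucleolar RNAs are encoded in the introns of many ribosomal protein genes, and 50 such rows overlapped 24 members. The highest of them held 29 counts over the 6 livers, which is small beside the counts of most hosts. Another gene overlapped 10 members, among them Rpl31 (with Tbc1d8) and Rpl37 (with Vps53). Of the 10, 2 were also hosts of such RNAs, Rpl17 and Rpl23a. The strandedness of the counting is not stated in the sources used here, and reads of such neighbours cannot be told apart from these data.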

How the data were processed

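Liver RNA of 3 t-PBS and 3 t-DHEA rats was sequenced as paired ends. The authors filtered the reads, aligned them with HISAT2 2.0.4 to Rnor_6.0, counted fragments with StringTie 1.3.0 and deposited raw counts, which carry no normalization, and FPKM made from them (versions per the submitters' processing notes). The annotation release is not given in the sources used here.

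The counts were fitted with edgeR 4.0.16 (R 4.3.3): TMM factors, default filter (12210 rows), quasi-likelihood test, no covariate. A row was called with the thresholds of the study, which are an unadjusted p under 0.05 and a fold over 1.2. The study applied edgeR to FPKM, whereas only the counts were fitted here. CPM uses the total count unless TMM is named, intervals are 95% intervals of the fit, and the deposited FPKM values were used for levels per length and implied exon lengths. The fit was tested on simulated data with known changes, which were larger than those of Rpl12 and Rps4y2 and were scored by adjusted p. It therefore does not measure recovery at the thresholds used for calls here. Named were every called, zero and erratic member, the 8 even members with the highest FPKM, the 4 steadiest, and members set by role. Others, such as Rps10 and Rps18, were named after their values were seen. Members and lists were chosen with earlier results of these data known. Rows were assigned to a protein by the description in the table. RefSeq windows are on GRCr8 and gene spans on Rnor_6.0, and the builds were not mixed. Alternatives were DESeq2 1.42.0, the likelihood-ratio test, other filters and scalings, another fold threshold, each liver left out in turn, rat number as a block, other class limits, and rows summed per protein, which was added after the data were seen. P-values cover the spread between these livers. Rat numbers did not pair the livers, so no pairing was used. A few members are counted in the totals but not reported here by name.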

Additional observations from a re-analysis of the deposited data

How the results depend on the processing

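The count of 3 called members was 2 with DESeq2 (2.13%, against 2.65% of all rows), 3 with the likelihood-ratio test (3.75% against 4.98%), 3 without a filter (3.19% against 4.52%) and 4 with total-count scaling (5% against 5.14%). It was 1 (Rpl30) at a fold-change above 1.5, and the share of all rows at that threshold is not given here. It was 0 with rows summed per protein, where Rpl30 turned from -2.16 to 0.035. Rps4y2, as a paralogue, was in none of the sums, so its call was left out there and not tested by summing. Leaving out single livers gave between 1 and 6 called members. There was 1 (1.25%, against 4.49% of all rows) without rat 1 of t-PBS. There were 6 (7.5% against 5.50%), of which 4 were lower in t-DHEA, without rat 3 of t-PBS. The called mitochondrial ribosomal protein rows went from 0 to between 0 and 5 with 1 liver left out. They were 5 (6.85%, against 5.50% of all rows) without rat 3 of t-PBS and 3 (4.11% against 6.01%) without rat 1 of t-DHEA. They were 2 (2.74%) without rat 2 of either group, against 4.15% (t-PBS) and 4.84% (t-DHEA) of all rows. With rat number as a replicate block, the quasi-likelihood test of edgeR called 2 members (2.5%), 0 mitochondrial rows and 539 of all rows (4.41%). The Rps4y2 call was lost. The numbers did not pair the livers: deviations from the group means correlated at -0.057, -0.059 and -0.055 over 12210 rows for livers of the same number, and at -0.068 to 0.116 for livers of different numbers, with no liver correlating best with its own number. The median log2 fold change of the members moved from -0.020 to -0.057 with total-count scaling, where the median of all rows was -0.04, and the other settings kept it between -0.04 and 0.00. The erratic class held 4 rows at 3 times, 1 at 6 times and 1 to 2 with a liver left out (1 when rat 1 or rat 2 of t-PBS was missing). The intermediate class held 7 to 12 with a liver left out, at 7 when rat 1 of t-PBS was missing. The difference of the summed level moved from -4.89% to -2.33% with TMM scaling and ran from -6.41% to -3.85% with a liver left out. Over all members and settings, 1022 fold changes stayed on the same side of the call thresholds, 7 gained a call, 9 lost one and 1 turned; those that turned or lost a call belonged to Rpl30, Rpl12 and Rps4y2. The causes were not tested. At 3 livers per group, depth limits the low and zero rows, where a count of 0 allows 3 counts.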

Other observations

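Of the 228 rows of other names described as a ribosomal protein, 70 passed the filter on low counts and 1 was called (1.43%, against 4.95% of all rows tested by edgeR's quasi-likelihood test at the thresholds of the study). It was RGD1563570, described as similar to S23, a protein of the decoding centre, with 297, 214 and 290 counts in t-PBS and 158, 217 and 196 in t-DHEA livers and a log2 fold change of -0.40 ± 0.15 (SE, n = 3 per group). The groups overlapped after TMM scaling, and the adjusted p was 0.949. Summed over its rows, of which those named Rps23 held 84.2% of the counts, S23 had a log2 fold change of 0.01 with a 95% interval from -0.20 to 0.23.

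RefSeq lists 914 entries of the ribosomal protein genes with a -ps name on GRCr8. The median number per protein was 12 where the named rows were even (55 proteins), 12 where they were intermediate (7), 9.5 where they were erratic (2), 15 where they were low (1), 5 where they were zero (5) and 10 where no row had the name (9).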
